A study of Homo sapiens with 3 samples.

Results

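The genes described here are those of the core and linker histones, the proteins that package DNA into nucleosomes and compact the fibre between them. They are all genes of the deposited value table whose current symbol starts with H1-, H2A, H2B, H3C, H3-, H4C or H4-. The rule gave 77 genes, read by 82 features (transcript-level values of the array), among 14836 named genes in the table. Of these, 64 are replication-dependent copies and 13 are variants. A further 15 protein-coding histone genes of the RefSeq annotation under the same prefixes were not analysed here, because no named feature carried them: H2AB2, H2AB3, H2AC19, H2AL3, H2AP, H2BC1, H2BK1, H2BN1, H2BW1, H2BW2, H3-7, H3C13, H3C3, H4C11 and H4C4.

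The RNA came from MNNG/HOS, an established human osteosarcoma line derived from HOS by chemical transformation. In each of 3 cultures the cells were kept in DMEM/F12 medium without serum for 5 days, and the floating spheres (sarcospheres) were taken. One culture contained TGF-beta1 at 4 ng/mL, one was kept under hypoxia at an unstated oxygen level, and one was untreated. Total RNA was labelled with Cy3 and measured on NimbleGen expression arrays, 1 array per culture, so that there was no replicate, no test and no p-value. Higher and lower describe these 3 arrays, and all cultures are of 1 line.

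Replication-dependent histone genes lie in multi-copy clusters and are transcribed mainly in S phase, when new DNA is packaged. Their mRNAs end in a stem-loop bound by the protein SLBP and mostly lack a poly(A) tail. Many variant genes, such as those of H2A.Z and H3.3, give polyadenylated mRNAs in and out of S phase. The labels do not state how the cDNA was primed, so how fully mRNAs without a poly(A) tail were labelled is unknown. The replication-dependent copies code for near-identical proteins, and the signal of a copy can include that of its relatives.

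Values are the authors' intensities on a linear scale. A gene's difference is the difference of its log2 values between a pair of arrays, and a gene was counted as higher or lower at 1.5-fold or more where the brighter array reached the median gene value of that array (402 on the TGF-beta1, 427 on the hypoxia and 410 on the untreated array). Genes below it on the brighter array are called dim here. Only genes that are not dim can be counted, while shares are given over all genes of a set, dim ones included. Against the untreated array, 7950 of the 14836 named genes were not dim with TGF-beta1, and 7820 under hypoxia. A set with few dim genes can therefore reach a larger share than all named genes. The table has no values below 50 and no detection calls, so a dim value may be background. The number of arrays limits the precision, and 75 of the 77 genes have 1 feature. Levels of different genes are not set against each other. Of the lineage markers, RUNX2, COL1A1, SPARC and VIM stood above the array medians on every array and SPP1 on the hypoxia and untreated arrays, while the bone phosphatase gene ALPL stood between 63.4 and 71.9. The blood marker CD14, the endothelial marker PECAM1 and the epithelial marker EPCAM were dim on every array, and so were the germ cell markers SYCP3, PRM1 and TNP1.

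The replication-dependent genes were on balance lower on the TGF-beta1 array and on the hypoxia array than on the untreated array. With TGF-beta1, 46 of the 64 genes were dimmer, against 7458 of the 14836 named genes. The 64 genes had a median log2 difference of -0.22, against -0.00 over all named genes. Of the 45 that were not dim, 3 were higher, 7 were lower and 35 lay within 1.5-fold. The 3 higher genes are 4.69% of the 64, against 6.73% of all named genes, and the 7 lower ones are 10.9%, against 6.15%. Among the 7950 named genes that were not dim, 998 were higher and 912 were lower. The share of higher genes was thus no larger than that of all genes, and that of lower genes was somewhat above it. At 2-fold, 1 copy was higher and 0 were lower, against 1.74% and 2.07% of all named genes.

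Under hypoxia, 44 of the 64 replication-dependent genes were dimmer than on the untreated array, against 6871 of the 14836 named genes. The 64 genes had a median of -0.31, against 0.04 over all named genes. Of the 43 that were not dim, 0 were higher, 12 were lower and 31 lay within 1.5-fold. The 12 lower genes are 18.8% of the 64, against 3% of all named genes, and 4.56% of all named genes were higher. At 2-fold, 2 copies were lower and 0 were higher, against 0.519% and 0.87% of all named genes. Most of these differences were small: the median corresponds to an untreated value 1.24-fold above the hypoxia value. Both comparisons use the same untreated array, so they are not independent. The counts of dimmer genes, here and by family below, include dim genes and are to be read beside those of all named genes. In RNA from whole spheres, fewer cells in S phase and less histone mRNA per cell cannot be told apart.

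**Figure D1:**
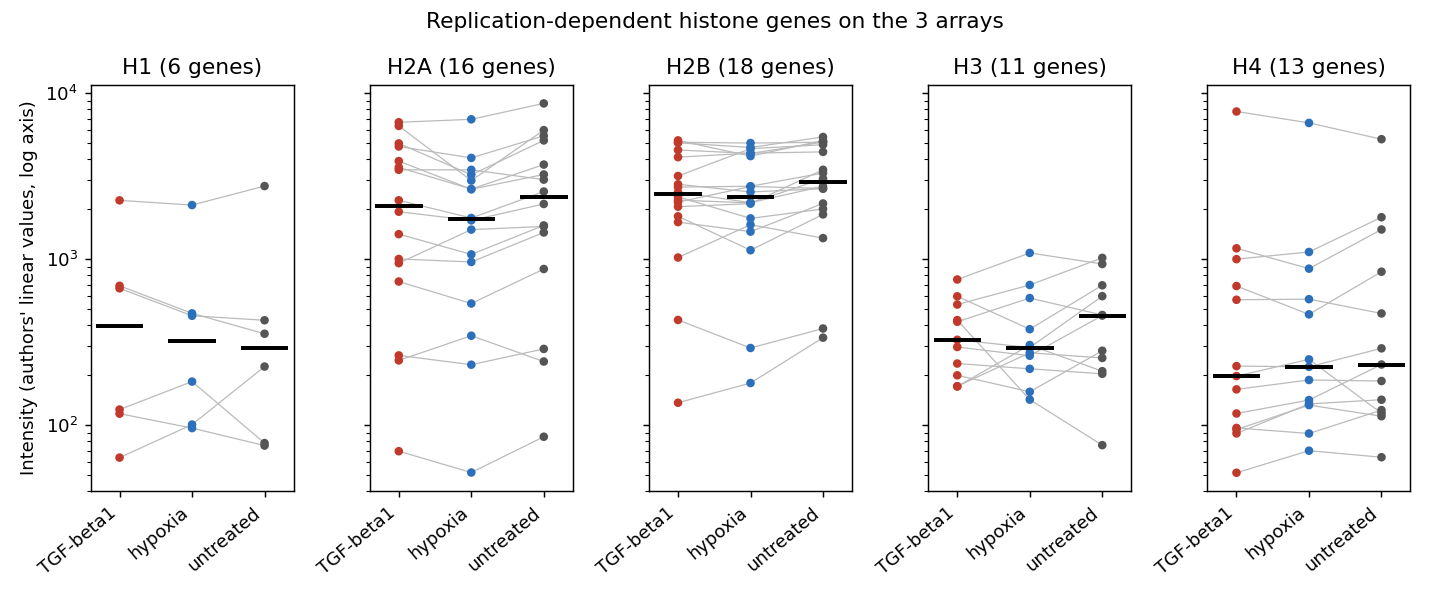
Intensity of each replication-dependent histone gene on the TGF-beta1, hypoxia and untreated arrays, by family, on a log axis. Each point is 1 gene on 1 array, grey lines join a gene's values and black bars are medians. For H2A, H2B, H3 and H4 the medians of both treated arrays lie below that of the untreated array, and for H1 above it. The H1 and H4 medians lie below the median gene value of each array. Gene by gene, 6 of 11 H3 copies and 6 of 13 H4 copies were brighter under hypoxia than untreated.

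Of the 6 replication-dependent linker histone genes, 2 were higher with TGF-beta1 (33.3%, against 6.73% of all named genes) and 0 were lower (against 6.15%), and 3 were dim. H1-4, one of the abundant somatic linker histones, read 692 on the TGF-beta1, 472 on the hypoxia and 356 on the untreated array. H1-5, another somatic linker histone, read 668 with TGF-beta1, 456 under hypoxia and 429 untreated. Both were highest with TGF-beta1, by 0.96 and 0.64 on the log2 scale over the untreated array, and lay within 1.5-fold of it under hypoxia. H1-2 read 2264 with TGF-beta1, 2121 under hypoxia and 2761 untreated and was below the untreated array in both treatments (-0.29 and -0.38), within 1.5-fold. H1-1 and H1-3 were dim, between 75.3 and 183 over the 3 arrays. The testis linker histone H1-6 was dim as well, at 63.7 with TGF-beta1, 101 under hypoxia and 225 untreated, so the size of its difference is not settled. The median of the 6 genes was 0.64 with TGF-beta1 and 0.22 under hypoxia, each with 2 genes dimmer than on the untreated array. Both medians rest in part on the dim H1-1. The 3 genes that were not dim had medians of 0.64 with TGF-beta1 and 0.09 under hypoxia.

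H2A copies were lower chiefly on the hypoxia array. H2A pairs with H2B in the nucleosome. Of the 16 copies, 14 were dimmer under hypoxia than on the untreated array, with a median of -0.47, and 4 were lower (25% of the 16, against 3% of all named genes). With TGF-beta1, 12 were dimmer, with a median of -0.17, and 1 was lower (6.25%, against 6.15%). H2AC25, a copy outside the large cluster on chromosome 6, had the largest of these differences under hypoxia. It read 6361 on the TGF-beta1, 2980 on the hypoxia and 6001 on the untreated array, a log2 difference of -1.01 for hypoxia and 0.08 for TGF-beta1. The hypoxia array alone was low for this gene.

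H2AC12 was also lowest under hypoxia, at 4991 with TGF-beta1, 3229 under hypoxia and 5205 untreated, and H2AC7 read 734 with TGF-beta1, 541 under hypoxia and 873 untreated. H2AC21 was just past the threshold under hypoxia, at 963 against 1450 untreated (-0.59), and H2AC16 just short of it, at 1070 against 1599 untreated (-0.58). H2AC6 differed in the other treatment: it read 947 with TGF-beta1, 1509 under hypoxia and 1577 untreated, a log2 difference of -0.74 with TGF-beta1. It was the H2A copy counted as lower with TGF-beta1. H2AC13 was brighter in both treatments, at 3461 with TGF-beta1, 3459 under hypoxia and 3019 untreated, well within 1.5-fold. The other H2A copies that were not dim (H2AC8, H2AC14, H2AC15, H2AC17, H2AC18 and H2AC20) lay within 1.5-fold of the untreated array in both treatments, while H2AC1, H2AC4 and H2AC11 were dim.

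H2B copies had mostly small differences. Of 18, 13 were dimmer with TGF-beta1 (median -0.14) and 16 under hypoxia (median -0.24). In each treatment 2 were counted as lower (11.1%, against 6.15% of all named genes with TGF-beta1 and 3% under hypoxia). With TGF-beta1, 17 of the 18 were not dim, and 912 of the 7950 named genes that were not dim were lower. Among genes that were not dim, the share of H2B copies lower with TGF-beta1 was thus near that of all genes. H2BC21, a copy on chromosome 1 that is also known for polyadenylated transcripts, read 2075 with TGF-beta1, 2163 under hypoxia and 3462 untreated. It was low on both treated arrays, by -0.74 and -0.68. H2BC12 read 3176 with TGF-beta1, 4642 under hypoxia and 4903 untreated and was low with TGF-beta1, while H2BC11 read 1814 with TGF-beta1, 1134 under hypoxia and 1864 untreated and was low under hypoxia. H2BC17, at 5072 with TGF-beta1, 5019 under hypoxia and 5071 untreated, hardly differed between the arrays. H2BC5 had 2 features that disagreed with TGF-beta1, at log2 differences of 0.73 and -0.39, so its mean of 0.17 carries little weight. H2BC18 was dim, at 136 with TGF-beta1, 179 under hypoxia and 337 untreated.

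H3 copies made up 3 of the 7 replication-dependent genes that were lower with TGF-beta1. Histone H3 carries most of the tail modifications that mark active and silent chromatin. Of 11 copies, 9 were dimmer with TGF-beta1 (median -0.31), 3 were lower (27.3%, against 6.15% of all named genes) and 1, H3C8, was higher (9.09%, against 6.73%). H3C10 read 533 on the TGF-beta1, 700 on the hypoxia and 1019 on the untreated array, and H3C4 read 327 with TGF-beta1, 294 under hypoxia and 599 untreated. H3C1 read 296 with TGF-beta1, 262 under hypoxia and 457 untreated. These copies were highest on the untreated array, with log2 differences of -0.93, -0.87 and -0.63 for TGF-beta1 and -0.54, -1.03 and -0.80 for hypoxia. Both treated values of H3C4 and of H3C1 lay below the median gene value of their arrays. Over the processing alternatives, the H3C1 difference with TGF-beta1 ran from -0.63 to -0.49, and that of H3C4 under hypoxia from -1.09 to -0.83. H3C7 was lower under hypoxia alone, at 598 with TGF-beta1, 379 under hypoxia and 696 untreated. In the other direction, H3C14 and H3C15 were brightest under hypoxia, within 1.5-fold.

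H3C8 stood apart from the other H3 copies. It read 430 on the TGF-beta1, 143 on the hypoxia and 75.7 on the untreated array, the largest difference of any histone gene in the table (2.50 for TGF-beta1). Its values on the hypoxia and untreated arrays are dim, the untreated one close to the table's lower end, and it has 1 feature, so the size of the difference is not settled. The H3 median under hypoxia was 0.10, with 6 of 11 copies brighter, yet 3 copies were lower (27.3%, against 3% of all named genes) and 0 were higher. The dim copies H3C2, H3C6, H3C11 and H3C12 lay between 159 and 304 over the 3 arrays.

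Histone H4 is the most conserved core histone, and nearly all of its copies code for the same protein. Of 13 copies, 5 were not dim, of which 1 was lower with TGF-beta1 (7.69% of the 13, against 6.15% of all named genes) and 3 under hypoxia (23.1%, against 3%), with 0 higher in either. H4C15 read 1001 with TGF-beta1, 1106 under hypoxia and 1791 untreated, low on both treated arrays (-0.84 and -0.70). H4C14 read 1164 with TGF-beta1, 878 under hypoxia and 1511 untreated, and H4C12 read 689 with TGF-beta1, 465 under hypoxia and 841 untreated, and both were counted as lower under hypoxia and not with TGF-beta1. H4C3 went the other way, at 7774 with TGF-beta1, 6636 under hypoxia and 5293 untreated, just short of 1.5-fold with TGF-beta1 (0.55). H4C2 was brighter in both treatments, at 570 with TGF-beta1, 575 under hypoxia and 471 untreated. The direction therefore differed between H4 copies on the same arrays. The 8 dim copies (H4C1, H4C5, H4C6, H4C7, H4C8, H4C9, H4C13 and H4C16) lay between 51.6 and 290 over the 3 arrays.

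**Figure D2:**
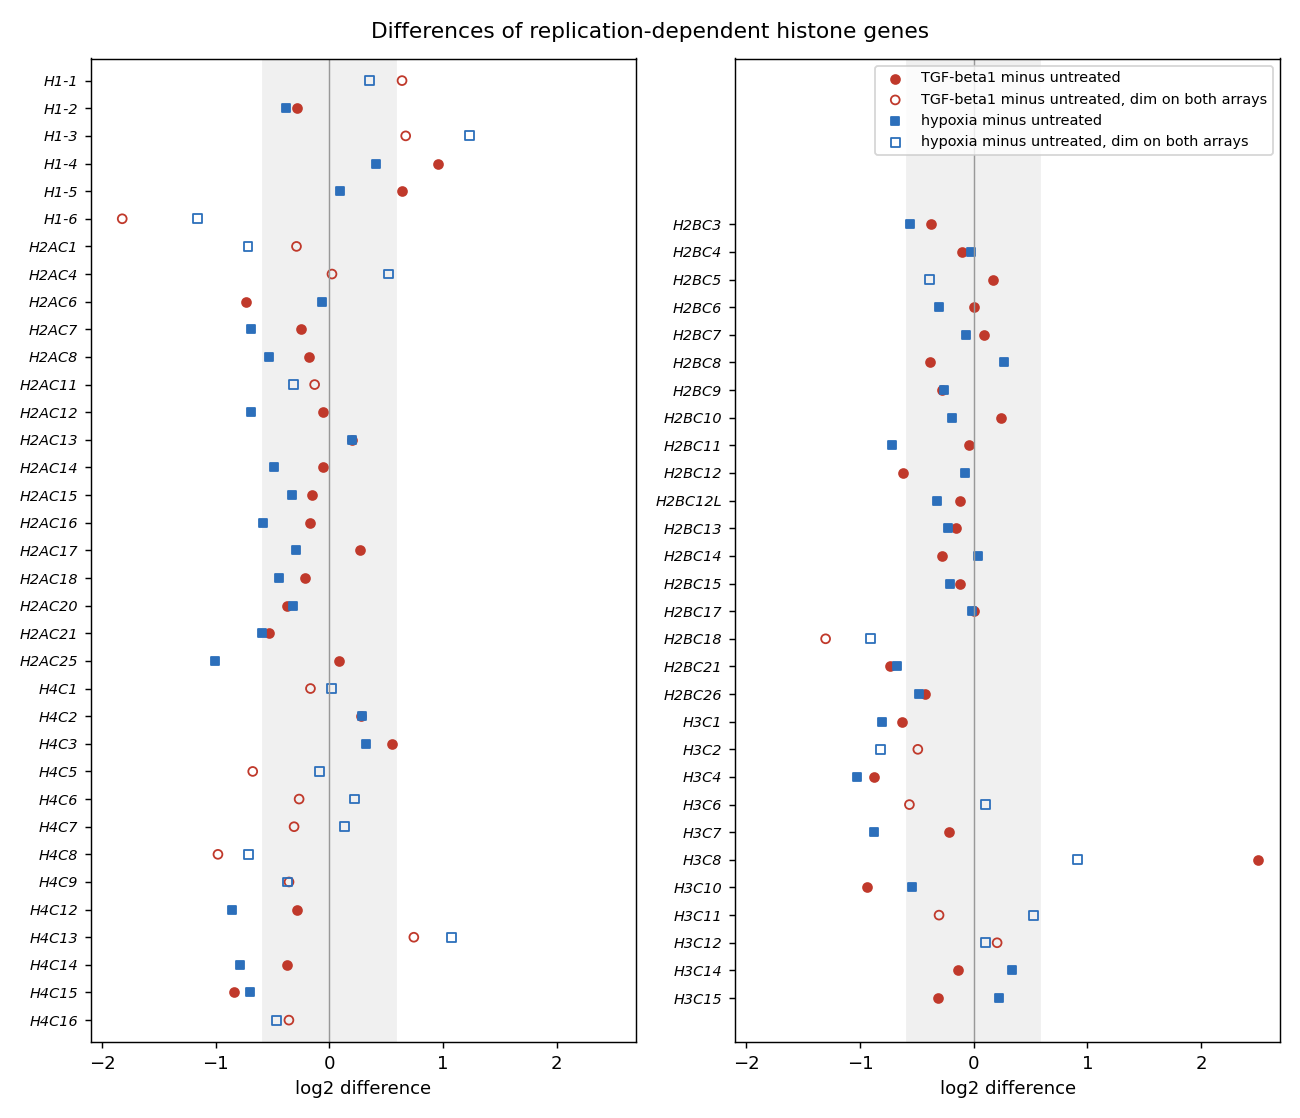
Log2 difference from the untreated array for each of the 64 replication-dependent genes, with TGF-beta1 as circles and hypoxia as squares. Open symbols are genes that were dim on both arrays compared, and the grey band spans differences within 1.5-fold; filled squares outside the band all lie on the lower side, while filled circles outside it lie on both sides.

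The copies fall into a large cluster on chromosome 6 (51 measured genes), smaller groups on chromosome 1 (11) and single copies on chromosomes 12 and 21. The chromosome 1 copies had medians of -0.38 with TGF-beta1 and -0.59 under hypoxia, and the chromosome 6 copies -0.17 and -0.21. Of the chromosome 1 copies, 2 were lower with TGF-beta1 (18.2%, against 6.15% of all named genes) and 5 under hypoxia (45.5%, against 3%), with 0 higher in either. Of the chromosome 6 copies, 5 were lower (9.80%) and 3 higher (5.88%, against 6.73%) with TGF-beta1, and 7 were lower (13.7%) and 0 higher under hypoxia. The difference between the chromosomes was not tested, and the chromosome 1 set holds 1 dim copy, H2BC18. Of the 51 chromosome 6 copies, 34 were not dim with TGF-beta1 and 32 under hypoxia, so fewer of them could be counted.

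Many H2A and H2B genes sit head to head and share the stretch of DNA between their starts. In the RefSeq annotation of GRCh38.p14, 10 pairs of measured H2A and H2B genes diverge from starts that lie 194 to 248 bases apart. The partners' log2 differences were 0.04 to 0.63 apart with TGF-beta1 (median 0.30), 0.04 to 0.80 apart under hypoxia (median 0.41) and 0.00 to 1.04 apart between the treated arrays. In the pair of H2AC25 and H2BC26, the hypoxia differences were -1.01 and -0.48. In the pair of H2BC21 and H2AC20, the TGF-beta1 differences were -0.74 and -0.38. The gap between partners exceeded 1.5-fold in 1 pair with TGF-beta1 and in 2 under hypoxia. Each partner has 1 feature. Between features of 1 gene the median SD was 0.23 with TGF-beta1 and 0.27 under hypoxia. A gap between 2 values is larger than their SD, so the gaps cannot be set directly against these SDs. Whether the gaps exceed this spread was not tested. H3C4 has the same annotated start as H2AC7, so the same sequence was counted for both genes in the promoter shares below. Whether H3C4 is transcribed from this start was not tested.

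Variants differed in a few members, and the clearest case was in the H2A family. H2AX, the variant phosphorylated around DNA breaks, read 4899 on the TGF-beta1, 2363 on the hypoxia and 2443 on the untreated array. H2AZ1, which codes for the promoter-associated H2A.Z, read 9763 with TGF-beta1, 5517 under hypoxia and 6115 untreated. The TGF-beta1 array was high for both, by 1.0 (2.01-fold) and 0.67 (1.60-fold) over the untreated array, and the hypoxia array was close to the untreated one. H2AZ2, the second H2A.Z gene, read 4843 with TGF-beta1, 3175 under hypoxia and 3864 untreated as the mean of 5 features. Each feature was brighter with TGF-beta1 (log2 differences between 0.26 and 0.41, SD 0.06 between features), short of 1.5-fold, while under hypoxia the features ranged from -0.71 to 0.14. H2AJ, a variant close to canonical H2A, read 3095 with TGF-beta1, 2614 under hypoxia and 2938 untreated and lay within 1.5-fold. The testis variant H2AB1 was dim.

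H3.3 is the variant of H3 that is placed on chromatin outside S phase. Its gene H3-3A read 9790 on the TGF-beta1, 10114 on the hypoxia and 11287 on the untreated array, and H3-3B, which codes for the same protein, read 395 with TGF-beta1, 399 under hypoxia and 420 untreated. H3-5, a retrocopy close in sequence to H3-3B, read 8442 with TGF-beta1, 8777 under hypoxia and 7960 untreated. These 3 genes lay within 1.5-fold in each comparison, and the signal of H3-5 may include that of H3-3B. The testis gene H3-4 was dim. Of the linker variants, H1-10 read 2380 with TGF-beta1, 1474 under hypoxia and 1979 untreated. It was lowest under hypoxia, by -0.42 against the untreated array, short of 1.5-fold. The germ-line linker genes H1-7 and H1-8 were dim.

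Of the 13 variants, 9 were not dim in the comparison of TGF-beta1 with untreated spheres, of which 2 were higher (15.4% of the 13, against 6.73% of all named genes) and 0 were lower (against 6.15%). Under hypoxia 0 of 13 were higher (against 4.56%) or lower (against 3%), and 11 were dimmer, against 6871 of the 14836 named genes. The variant medians were 0.07 with TGF-beta1 and -0.16 under hypoxia. The variants hold genes of unlike roles and 5 germ-line members, so the median describes no common behaviour.

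**Figure D3:**
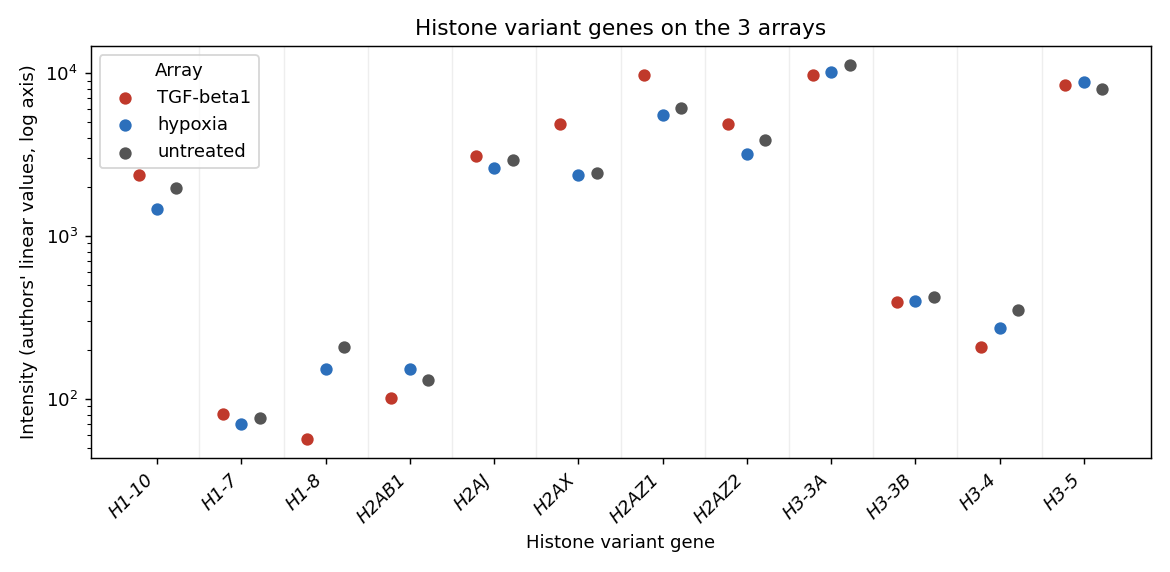
Intensity of 12 of the 13 histone variant genes on the TGF-beta1, hypoxia and untreated arrays, on a log axis, 1 point per gene and array. H2AX and H2AZ1 have TGF-beta1 points clearly above both others, and H3-3A and H3-3B have 3 points close together.

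Promoter sequences are shown for 5 genes as examples of the patterns above, chosen after their values were seen: H2AX and H2AZ1 (variants high with TGF-beta1), H1-4 (a linker copy high with TGF-beta1), H2BC21 (a copy low in both treatments) and H2AC25 (low under hypoxia). Each is the 250 bases before the annotated start, from RefSeq on GRCh38.p14, written 5′ to 3′ on the gene's strand. Positions are chr11:119095466-119095715 (minus strand) for H2AX, chr4:99950276-99950525 (minus) for H2AZ1, chr6:26156079-26156328 (plus) for H1-4, chr1:149886683-149886932 (minus) for H2BC21 and chr1:228457874-228458123 (minus) for H2AC25. Capitals mark matches on either strand to 5 motifs: the TATA box (TATAAA), the CCAAT box (CCAAT), the octamer bound by POU2F1 (ATTTGCAT), an E2F element (TTTNGCGC) and the H1 box (AAACACA). No matches of different motifs overlapped in these sequences.
H2AX: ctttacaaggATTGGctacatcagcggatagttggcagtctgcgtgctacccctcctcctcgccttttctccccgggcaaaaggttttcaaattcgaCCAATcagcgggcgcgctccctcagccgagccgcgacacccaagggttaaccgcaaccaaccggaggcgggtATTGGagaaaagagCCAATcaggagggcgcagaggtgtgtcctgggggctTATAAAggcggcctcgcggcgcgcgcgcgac
H2AZ1: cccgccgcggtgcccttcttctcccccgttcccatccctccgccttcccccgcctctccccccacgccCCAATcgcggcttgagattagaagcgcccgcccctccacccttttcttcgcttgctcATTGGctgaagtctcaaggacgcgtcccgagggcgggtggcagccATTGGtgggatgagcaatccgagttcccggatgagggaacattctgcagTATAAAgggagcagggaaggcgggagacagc
H1-4: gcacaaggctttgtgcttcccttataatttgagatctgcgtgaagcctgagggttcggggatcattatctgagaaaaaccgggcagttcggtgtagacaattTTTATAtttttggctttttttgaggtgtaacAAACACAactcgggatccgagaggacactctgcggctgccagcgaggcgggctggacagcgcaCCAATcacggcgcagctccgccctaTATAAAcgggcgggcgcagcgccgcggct
H2BC21: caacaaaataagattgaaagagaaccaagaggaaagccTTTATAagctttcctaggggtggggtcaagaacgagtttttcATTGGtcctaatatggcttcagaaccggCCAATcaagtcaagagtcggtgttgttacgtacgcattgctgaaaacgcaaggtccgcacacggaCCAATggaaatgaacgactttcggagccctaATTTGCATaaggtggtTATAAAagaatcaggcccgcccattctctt
H2AC25: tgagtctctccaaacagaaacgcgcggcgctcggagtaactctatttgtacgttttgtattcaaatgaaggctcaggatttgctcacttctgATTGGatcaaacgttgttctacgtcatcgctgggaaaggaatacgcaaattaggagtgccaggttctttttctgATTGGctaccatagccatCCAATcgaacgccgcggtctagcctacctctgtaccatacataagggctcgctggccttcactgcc

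Distances run from the first base of a match to the start. H2AX and H2AZ1 each have a TATA box 31 bases before the start and several CCAAT boxes. H1-4 has the H1 box 117 bases before its start, a CCAAT box at 54 and a TATA box at 29. H2BC21 has the octamer at 46 bases before the start, next to a TATA box at 30. Further matches to TATAAA lie on the reverse strand at 148 bases in H1-4 and 212 in H2BC21. The match at 212 is the TATA box that lies 29 bases before the start of H2AC20, the head-to-head partner of H2BC21. H2AC25 has 3 CCAAT boxes and none of the other motifs in this window. Promoters were found for 69 of the 77 genes. CCAAT stood in 86.2% of 58 replication-dependent promoters and 90.9% of 11 variant promoters, against 33.0% of 27305 promoters of the table. The TATA box stood in 63.8% and 45.5%, against 11.1%.

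The octamer stood in 76.5% of 17 H2B and 73.3% of 15 H2A promoters, against 1.66% of all promoters, and the H1 box stood in 6 of 6 promoters of replication-dependent H1 genes, against 4.95%. The E2F element stood in 19.0% of replication-dependent and 0 of 11 variant promoters, against 1.54%. Because partners' windows overlap, the H2A, H2B and E2F shares include elements counted for both genes of a pair and do not count separate elements. H4 promoters held CCAAT in 27.3% of 11. Among the sequences shown, genes that were low and genes that were high thus shared CCAAT boxes. These are matches of letters and describe no binding.

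Genes that serve histone supply were measured as lists. Among the S-phase markers, 7 of 19 measured genes were higher with TGF-beta1 (36.8%, against 6.73% of all named genes) and 0 were lower (against 6.15%). Of the 19, 18 were brighter, against 7376 of the 14836 named genes, and their median was 0.54 over the 19. The replication-dependent histones, with a median of -0.22, thus lay on the other side of 0 from these S-phase markers on the TGF-beta1 array. Under hypoxia the S-phase median was 0.02, with 0 higher (against 4.56%) and 1 lower (5.26%, against 3%). The largest difference with TGF-beta1 after that of RRM2 (1458 with TGF-beta1, 615 under hypoxia and 606 untreated) was that of GINS2, a subunit of the replicative helicase, at 3039 with TGF-beta1, 1449 under hypoxia and 1425 untreated. Under hypoxia MCM4, another helicase subunit (8947 with TGF-beta1, 4287 under hypoxia and 7026 untreated), had the largest among the genes that were not dim.

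Histone chaperones, which carry histones to DNA, were higher with TGF-beta1 in 8 of 26 measured genes (30.8%, against 6.73% of all named genes), with 0 lower and a median of 0.26. CHAF1B and CHAF1A, subunits of the CAF-1 complex that deposits new H3 and H4 behind the fork, read 1426 and 2015 with TGF-beta1, 674 and 1171 under hypoxia, and 636 and 1183 untreated. ASF1B, which hands H3 and H4 to CAF-1, read 1675 with TGF-beta1, 1123 under hypoxia and 955 untreated. SPTY2D1, an H3 and H4 chaperone, read 481 with TGF-beta1, 401 under hypoxia and 242 untreated. The CAF-1 genes and ASF1B were thus high on the TGF-beta1 array. The replication-dependent copies had a median of -0.22 on it, against -0.00 over all named genes. NASP, which holds the soluble pool of H3 and H4, lay within 1.5-fold (2524 with TGF-beta1, 1814 under hypoxia and 2166 untreated). Under hypoxia 2 chaperone genes were higher (7.69%, against 4.56%) and 1 was lower (3.85%, against 3%), with a median of 0.09, and TONSL, a replication-fork chaperone (2005 with TGF-beta1, 1738 under hypoxia and 1044 untreated), and IPO4, an importin for H3 and H4 (4501 with TGF-beta1, 4304 under hypoxia and 2859 untreated), had the largest differences among the genes that were not dim.

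The genes of histone transcription and mRNA processing had members in both directions. With TGF-beta1, 3 of 19 were higher (15.8%, against 6.73% of all named genes) and 1 was lower (5.26%, against 6.15%), with a median of 0.23. Under hypoxia 1 was higher (5.26%, against 4.56%) and 2 were lower (10.5%, against 3%), with a median of 0.01. SLBP, the stem-loop binding protein, read 1510 on the TGF-beta1, 684 on the hypoxia and 1129 on the untreated array. It was low on the hypoxia array (-0.72), on which 12 replication-dependent copies were also low, and within 1.5-fold with TGF-beta1. HINFP, a transcription factor of H4 genes, read 1024 with TGF-beta1, 1564 under hypoxia and 1784 untreated and was low with TGF-beta1 (-0.80). NPAT, the cyclin E/CDK2 substrate that activates histone genes, and CASP8AP2 (FLASH), a processing factor, were dim. LSM10, a subunit of the U7 particle that cuts histone pre-mRNA, read 2066 with TGF-beta1, 1964 under hypoxia and 1177 untreated and was high in both treatments. TUT7, an enzyme that adds uridines to RNA ends, read 633 with TGF-beta1, 207 under hypoxia and 665 untreated, and E2F1, the S-phase entry factor, read 970 with TGF-beta1, 568 under hypoxia and 380 untreated. Whether any of these genes has a part in the histone values was not tested.

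Of the histones outside these prefixes, CENPA, the H3 variant of centromeres, read 1731 with TGF-beta1, 1225 under hypoxia and 761 untreated and was high in both treatments. The macroH2A genes MACROH2A1 (5728 with TGF-beta1, 5455 under hypoxia and 5377 untreated) and MACROH2A2 (978 with TGF-beta1, 810 under hypoxia and 835 untreated) lay within 1.5-fold.

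**Figure D4:**
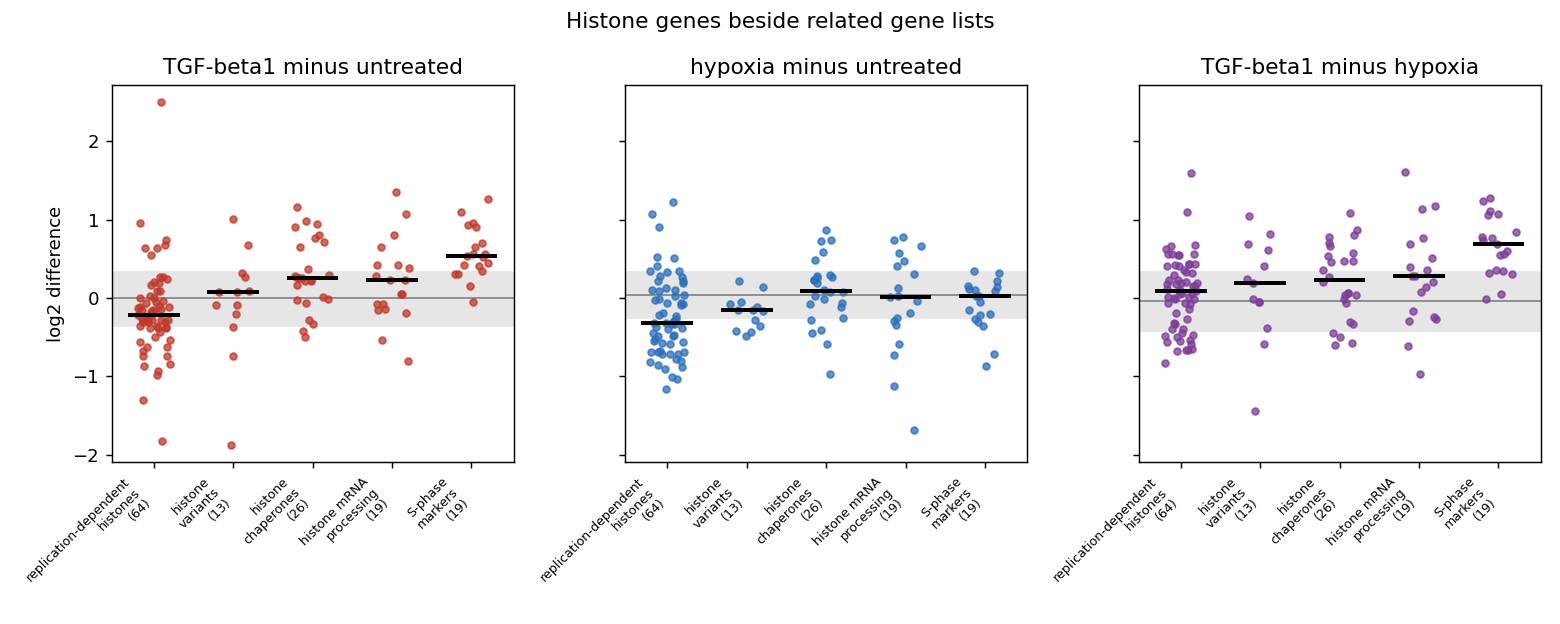
Log2 differences in 3 comparisons for the replication-dependent histones, the histone variants and 3 related lists, 1 point per gene with black bars at medians. The grey line and band are the median and the interquartile range of all named genes; the S-phase markers lie at a median of 0.54 with TGF-beta1, and the replication-dependent histones at -0.22.

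Set directly against each other, the treated arrays had their largest family median in H2A, copies and variants together (0.35). For TGF-beta1 minus hypoxia, 5 of 64 replication-dependent genes were higher (7.81%, against 7.06% of all named genes) and 2 were lower (3.12%, against 8.18%). Their median was 0.09, against -0.03 over all named genes, and that of the H2A copies was 0.29. The higher copies were H2AC12, H2AC25, H2BC11, H3C7 and H3C8, and the lower ones H2AC6 and H2BC8. The count of higher copies depended on the scaling: with loess centring it was 9, while all named genes had 1082 higher in place of 1047, and with quantile normalization it was 9, with 1185 of all named genes. At 2-fold, 2 copies were higher and 0 were lower, against 1.75% and 3.07% of all named genes. With median centring of the arrays, which moved the median of all genes in this comparison to 0.09, 10 copies were higher and 0 were lower, while all named genes had 1515 higher and 894 lower, against 1047 and 1213 as deposited. Of the 13 variants, 4 were higher (30.8%, against 7.06% of all named genes) and 0 were lower (against 8.18%). The higher variants were H2AX (1.05), H2AZ1 (0.82), H1-10 (0.69) and H2AZ2 (0.61). In this comparison the 5 features of H2AZ2 ranged from 0.20 to 0.97. With loess centring, or with the median over features, 3 variants were higher, and at 2-fold 1 was.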

How the data were processed

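The authors deposited 1 table of linear intensity values, with 38572 features in rows and the 3 arrays in columns; per the labels, total RNA was labelled with a NimbleGen one-color Cy3 kit. No label or header states the background correction, probe summary, normalization or filters, and the nearly equal distributions of the columns were taken as a sign of normalization. Features were named from the platform annotation through the Entrez identifier (15623) or a RefSeq accession (593); 22356 stayed unnamed. A gene's value is the mean log2 of its features, without a pseudocount. Replication-dependent genes are H1-1 to H1-6 and the H2AC, H2BC, H3C and H4C symbols, H2BC12L included; every other member is a variant. With 1 array per group, differences and counts were described without a test. The counting code was checked on simulated data in which 200 bright genes were changed 2-fold. This says nothing of the rate of false counts on these arrays. Every member could be named; of each related list, the 2 largest differences per comparison with the untreated array and a fixed set were, apart from a few genes that are not reported here by name. The members and lists were chosen with earlier results of these data known. Alternatives covered scaling, an offset, the summary and naming of features, the filter on dim values, the fold and the testis-expressed members. Python 3.11.15, pandas 2.3.3, numpy 2.4.6, statsmodels 0.14.6 and matplotlib 3.10.9 were used.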

Additional observations from a re-analysis of the deposited data

How the results depend on the processing

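The medians kept their direction under every alternative run. For replication-dependent genes they ranged from -0.23 to -0.14 for TGF-beta1 minus untreated, -0.36 to -0.26 for hypoxia minus untreated and 0.07 to 0.22 for TGF-beta1 minus hypoxia. For variants they ranged from 0.01 to 0.17, -0.20 to -0.15 and 0.08 to 0.51, the last value (0.51) without testis-expressed members. Between features of 1 gene the median SD of the difference was 0.23, 0.27 and 0.32 in the same comparisons, over 1118 genes; it leaves out the spread between cultures, which these arrays cannot give.

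Counts depended on the threshold and the filter by construction. At 2-fold, replication-dependent genes numbered 1 higher and 0 lower with TGF-beta1, 0 higher and 2 lower under hypoxia, and 2 higher and 0 lower for TGF-beta1 minus hypoxia; variants numbered 1 higher with TGF-beta1 and 1 higher for TGF-beta1 minus hypoxia. With no filter on dim values, replication-dependent genes numbered 6 higher and 11 lower with TGF-beta1 and 3 higher and 17 lower under hypoxia. For TGF-beta1 minus hypoxia 6 were lower. Variants numbered 2 lower with TGF-beta1 and 2 lower for TGF-beta1 minus hypoxia. Of the 14836 named genes, 1952 were then higher and 2226 lower with TGF-beta1, and 1664 higher and 1306 lower under hypoxia. For TGF-beta1 minus hypoxia 2602 of them were lower. The lower counts with TGF-beta1 were thus near the share over all named genes. With the brighter array at 4 times the lowest value, 1 replication-dependent gene was higher and 16 were lower under hypoxia. Of these genes 4 were lower for TGF-beta1 minus hypoxia, and 2 variants were lower with TGF-beta1. Of all named genes, 1089 were then higher and 763 lower under hypoxia. For TGF-beta1 minus hypoxia 1861 of them were lower, and with TGF-beta1 1484 were lower.

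For TGF-beta1 minus hypoxia, median centring gave 10 higher and 0 lower replication-dependent genes, quantile normalization 9 higher and loess centring 9 higher. Of all calls over named genes, median centring put 63.2% on the higher side with TGF-beta1 (52.3% as deposited) and 49.7% under hypoxia (60.3%). The replication-dependent counts were then 4 higher and 5 lower with TGF-beta1 and 0 higher and 15 lower under hypoxia. Those of all named genes were 1263 higher and 734 lower with TGF-beta1 and 555 higher and 562 lower under hypoxia. Averaging genes with identical proteins was not run, since no protein sequences were used here. No paired analysis was possible because each group has 1 array.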
